A study of Mus musculus with 5 samples.

Results

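Expression of 47 genes that encode enzymes of amino acid catabolism and one-carbon metabolism was examined in injured mouse kidneys with and without a deletion of Prdm16 in the tubules. The genes were taken by name, and all 47 were found, each on a single line, among the 35478 genes listed for every library. Kidneys came from 2 Prdm16fl/fl mice, numbered 1 and 3 in the labels, and from 3 Ksp-Cre/Prdm16fl/fl mice, numbered 1, 2 and 3. The strain is labelled C57BL/6J;129 for all 5 mice, while the sample titles give C57BL/6J, and the study's methods give male mice aged 7 to 8 weeks. Both groups carried the floxed allele, with loxP sites around exon 9 of Prdm16, and the groups differed by Ksp-Cre, which is Cre recombinase under the promoter of kidney-specific cadherin, active in tubular epithelium. The Prdm16fl/fl mice had no Cre, so an effect of Cre itself cannot be told apart from that of the deletion. All mice underwent unilateral ischemia-reperfusion injury (UIRI). The left renal pedicle was clamped for 35 minutes with the mouse held at 38.5 °C, the right kidney was taken out on day 10, and the kidneys were collected 24 hours later, on day 11. The methods name the cortex as the tissue. Uninjured kidneys of either genotype are not analysed here, so the values compare genotypes after injury only. Below, the groups are called control (Prdm16fl/fl) and knockout (Ksp-Cre/Prdm16fl/fl), and values by mouse are in the order of the numbers above.

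The proximal tubule takes up filtered amino acids and breaks many of them down, largely inside mitochondria. The kidney also makes serine, arginine and guanidinoacetate, the precursor of creatine, for the rest of the body. One-carbon metabolism moves single carbon units from serine, glycine, dimethylglycine and sarcosine onto folate, and passes them on to methionine and nucleotides. Homocysteine is either methylated back to methionine or sent through transsulfuration to cysteine. The branched-chain amino acids leucine, isoleucine and valine share their opening steps and end as acetyl-CoA, acetoacetate or propionyl-CoA.

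Each library was made from 1 mouse and held 14939040 to 16425161 counted reads. The study's methods say that controls in its animal experiments were littermates, but the labels give no litter. Control and knockout mice may thus share litters, and pairing by litter was not modelled. The p-values measure the spread between these mice. Prdm16, the targeted gene, measured 25.3 and 20 counts per 1000000 (CPM, scaled with TMM factors) in the control mice and 17.1, 17.0 and 18.0 CPM in the knockout mice, a log2 fold change of -0.38 (SE 0.15, adjusted p = 0.259, edgeR's quasi-likelihood test). The whole-gene count in a mixed tissue does not isolate exon 9 or the tubules. Knockout mouse 3 stood apart from its group, with Pearson's r of log2 CPM across genes of 0.957 and 0.960 to mice 1 and 2, against 0.991 between these, and results that rest on it are also given without it. The 14 proximal tubule markers, the defining genes of the main cell type of the cortex, summed to 6841 CPM or more in every library.

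Among the enzyme genes that fell, Dmgdh and Bhmt2 are neighbours that start 134 bases apart on opposite strands of chromosome 13, pointing away from each other (GRCm38.p6 in RefSeq). The sequence between the start sites, chr13:93674303-93674435, is 133 bases long with a GC content of 69.9%, and is shown on the plus strand, so Dmgdh starts at its right end and Bhmt2 at its left. The deposited coordinates also place 133 bases between the genes. Bhmt, the third gene of this cluster, lies 18338 bases from Bhmt2.
Dmgdh and Bhmt2: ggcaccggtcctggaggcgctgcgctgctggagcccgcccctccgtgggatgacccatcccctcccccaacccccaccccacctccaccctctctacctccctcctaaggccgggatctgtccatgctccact

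RefSeq windows of 250 bases before to 50 after the start were available for 43 of the 47 genes (50 of the 32851 windows given). Asl, Aldh1l2, Cth and Dbt had none. The windows were searched on both strands for short motifs bound by factors known in mitochondrial or proximal tubule gene control. The NRF1 motif, GCGCA and GCGC around any base, was found in 3 of 43 genes, in 6.00% of their windows, against 4.60% of all windows and 8.13% of the windows of tested genes. The HNF4 motif CAAAGTCCA was found in 2 genes (6.00% of windows, overlapping windows of Agxt2 holding the same match), against 0.475% and 0.479%, and the ERR motif TCAAGGTCA in Bhmt alone (1 of 50 windows), against 0.423% and 0.309%. Neither the HNF1 motif, GTTAAT and ATTAA around any base, nor TGATGNAA, a core of the ATF4 site, was present in these windows. The latter was in 3.97% of all windows and 2.41% of those of tested genes. The HNF1 motif was in 0.0609% and 0.0606%, so its absence from 50 windows says little. The CCAAT box, CCAAT, was in 26 genes and in 58.0% of their windows, against 37.4% and 36.9%. A match describes the letters only.

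The 250 bases before the start are shown for Shmt2, the enzyme gene with the smallest adjusted p, and for Mthfd2, its partner in the mitochondrial folate pathway, which did not fall. Capitals mark the NRF1 motif, which begins 19 bases before the start of Shmt2 (chr10:127522445-127522694, minus strand) and is not in the stretch of Mthfd2 (chr6:83317605-83317854, minus strand). Each sequence reads 5′ to 3′ toward the gene.
Shmt2: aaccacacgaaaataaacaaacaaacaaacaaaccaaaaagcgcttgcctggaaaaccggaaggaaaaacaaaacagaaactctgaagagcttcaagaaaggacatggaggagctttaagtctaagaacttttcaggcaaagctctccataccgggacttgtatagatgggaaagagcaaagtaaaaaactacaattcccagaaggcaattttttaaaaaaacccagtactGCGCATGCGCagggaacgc
Mthfd2: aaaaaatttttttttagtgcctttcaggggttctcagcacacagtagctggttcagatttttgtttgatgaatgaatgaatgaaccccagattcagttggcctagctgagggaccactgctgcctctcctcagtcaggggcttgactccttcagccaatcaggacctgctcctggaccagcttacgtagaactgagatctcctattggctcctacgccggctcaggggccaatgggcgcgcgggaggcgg

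The other matches to the NRF1 and HNF4 motifs were in Hibadh (chr6:52640337-52640386, minus strand), Pccb (chr9:101034924-101034973, minus strand), Aadat (chr8:60506032-60506080, plus strand) and Agxt2 (chr15:10358492-10358532, plus strand). Short stretches around them are shown with the motif in capitals. The matches in Hibadh and Aadat are to the reverse complement of the motif.
Hibadh: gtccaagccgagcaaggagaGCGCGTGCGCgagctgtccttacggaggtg
Pccb: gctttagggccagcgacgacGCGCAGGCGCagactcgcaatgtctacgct
Aadat: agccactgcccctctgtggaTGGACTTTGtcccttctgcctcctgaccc
Agxt2: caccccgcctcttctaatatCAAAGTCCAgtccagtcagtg

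The enzyme genes were mostly lower in knockout kidneys than in control kidneys. All 47 passed the filter on low counts, and 8 of them (17.0%) were lower at an adjusted p under 0.05, against 0.872% of the 16394 genes tested. These were Shmt2, Dmgdh, Sardh, Bhmt2, Cbs, Ivd, Mccc1 and Aldh4a1. None was higher, against 0.104% of all genes, and at an unadjusted p under 0.05 there were 31 lower (66.0%, against 11.2%) and 0 higher (against 7.64%) with edgeR. When the log2 fold change also had to reach 1 in size, 7 were lower (against 0.628%) and 0 higher (against 0.0793%). The median log2 fold change of the 47 genes was -0.86, with a range from -2.59 to 0.92, while the median of all genes tested was 0.038. A negative fold change was seen for 44 genes (93.6%), against 46.0% of all genes. All 3 knockout mice lay below both control mice for 36 genes (76.6%, against 21.3%) and above both for 2, Mthfd2 and Mthfd1l (4.26%, against 20.3%). A library of bulk tissue cannot tell fewer cells of a type from less RNA per cell.

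The difference was present in each mouse. Summed over the 47 genes, CPM reached 7714 and 8329 in the control mice but 3893, 4106 and 4779 in the knockout mice. The lowest control sum was thus well above the highest sum of the other group. The median log2 difference of the 47 genes from the control mean was -0.97, -0.84 and -0.88 in knockout mice 1, 2 and 3, and -0.063 and 0.060 in the control mice.

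**Figure D1:**
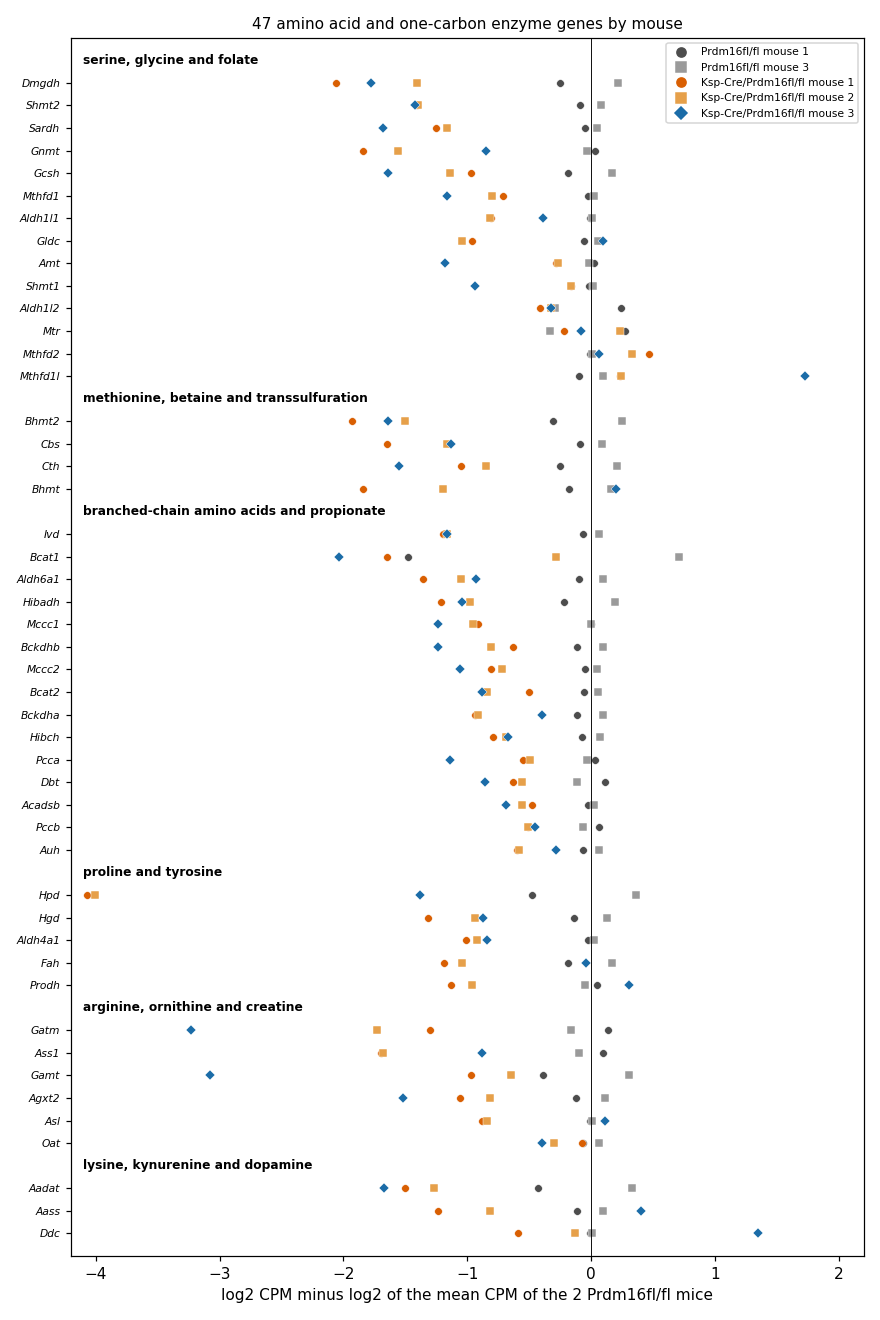
The log2 CPM of each of the 47 genes in each mouse (x axis), as a difference from log2 of the mean CPM of the 2 control (Prdm16fl/fl) mice, with the genes on the y axis grouped by the pathway they belong to. Symbols mark the 5 mice, and for 36 genes all 3 knockout (Ksp-Cre/Prdm16fl/fl) symbols lie left of both control symbols.

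The number of genes past the adjusted threshold depended on the tool and on which libraries were compared. DESeq2 gave 29 lower genes, against 5.45% of the 15895 genes to which it gave an adjusted p, and 0 higher, against 1.94%. Without knockout mouse 3, edgeR gave 38 lower genes (against 11.0%), 0 higher (against 7.82%) and a median of -0.93. Leaving out knockout mouse 1 or 2 gave 0 of the 47, and 0 of all genes tested passed in either fit. At an unadjusted p under 0.05 by edgeR, 31 and 32 of the 47 were lower in these fits. Over all genes, 2514 of 16201 and 2298 of 16176 had such a p, lower and higher together. Without control mouse 1 or 3, which leaves 1 control, the median log2 fold change of the 47 was -0.90 and -0.76. Of the 39 genes that did not pass with edgeR on all libraries, 16 had a negative fold change and an adjusted p from 0.05 to 0.1. The other 23 had an adjusted p of 0.1 or more. Just past the threshold of 0.05 stood 6 lower genes with an adjusted p under 0.06. The share of all genes in these bands was not counted, so the bands have no background to be set against.

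**Figure D2:**
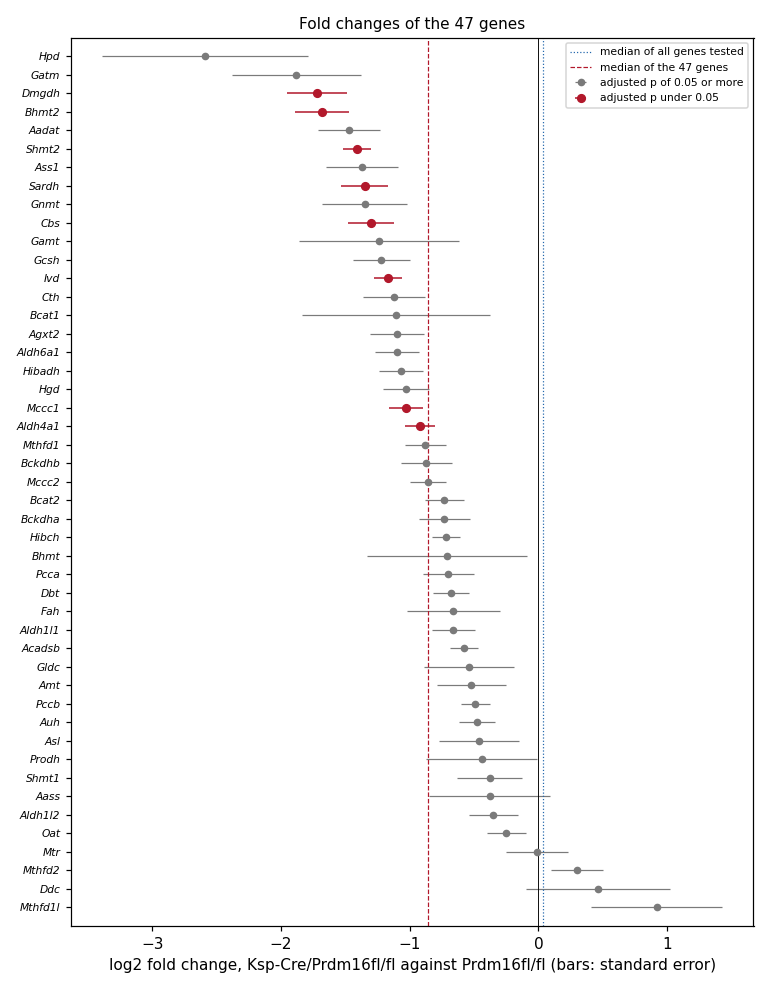
Log2 fold change of each of the 47 genes (x axis), knockout against control, from edgeR, with bars for the standard error. The 8 genes with an adjusted p under 0.05 are red, the dashed line is the median of the 47 genes at -0.86, and the dotted line is the median of all genes tested at 0.038.

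In serine, glycine and folate metabolism, 3 of 14 genes fell, all of them mitochondrial enzymes that load single carbon units onto folate. Shmt2 splits serine into glycine and a folate-bound carbon, and Dmgdh and Sardh oxidise dimethylglycine and sarcosine in turn. The group's median log2 fold change was -0.60, and 10 of the 14 had all 3 knockout mice below both control mice. Shmt2 (chromosome 10, 127352992 to 127358313 on the minus strand in the deposited coordinates, which differ from GRCm38 and whose build is not given in the sources used here) measured 249 and 281 CPM in control mice 1 and 3 and 100, 100 and 98.9 CPM in knockout mice 1, 2 and 3. Its group means were 265 ± 22.6 CPM (SD, n = 2) and 99.8 ± 0.811 CPM (SD, n = 3), a log2 fold change of -1.41 (SE 0.11, adjusted p = 0.0242). The 3 knockout values were nearly equal, at 2.66-fold below the control mean.

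Dmgdh (chromosome 13, 93810944 to 93889331, plus strand) measured 48.8 and 67.7 CPM, against 14.0, 22.0 and 17.0 CPM. The group means were 58.2 ± 13.3 CPM (SD, n = 2) and 17.6 ± 4.04 CPM (SD, n = 3), a log2 fold change of -1.72 (SE 0.23, adjusted p = 0.0412), the most negative of the 8 genes past the threshold. Every knockout value was under that of the lower control mouse. Sardh (chromosome 2, 27078405 to 27138344, minus strand), which takes over the product of Dmgdh, measured 274 and 292 CPM against 119, 127 and 88.0 CPM. On average it was 283 ± 13.0 CPM (SD, n = 2) against 111 ± 20.5 CPM (SD, n = 3), with a log2 fold change of -1.35 (SE 0.18, adjusted p = 0.0412). The groups did not overlap for either enzyme.

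The glycine cleavage system, which breaks glycine down and hands its carbon to folate, was measured through the transcripts of its P, T and H proteins. Gcsh, the H protein, had a log2 fold change of -1.22 and an adjusted p of 0.0621, with 93.3 and 120 CPM against 54.6, 48.3 and 34.2 CPM. Gldc, the P protein, measured 151 and 163 CPM against 80.6, 76.4 and 168 CPM, so mouse 3 lay above both control mice while mice 1 and 2 lay far below them (adjusted p = 0.461). Amt, the T protein, had the opposite layout, with 80.7 and 78.5 CPM against 65.3, 66.0 and 35.1 CPM (adjusted p = 0.366). The transcripts of Gcsh, Gldc and Amt thus differed most from each other in the library that stood apart. Dld, a further gene of this system that was listed with the other pathway genes, did not diverge in mouse 3. It had 337 and 332 CPM against 243, 238 and 240 CPM (log2 fold change -0.48, adjusted p = 0.106).

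Mthfd1, the cytosolic enzyme that interconverts folate-bound carbon units, had a log2 fold change of -0.88 (adjusted p = 0.0611) with 158 and 163 CPM against 97.9, 92.4 and 71.9 CPM. Aldh1l1, the cytosolic 10-formyltetrahydrofolate dehydrogenase that releases the carbon as carbon dioxide, had 424 and 429 CPM against 243, 242 and 326 CPM (log2 fold change -0.66, adjusted p = 0.125). Both had all 3 knockout mice on the lower side. Gnmt, which methylates glycine to sarcosine, was a low transcript with 8.70 and 8.32 CPM against 2.38, 2.89 and 4.73 CPM (adjusted p = 0.111). The cytosolic Shmt1 and the mitochondrial Aldh1l2 had log2 fold changes of -0.38 and -0.35, with adjusted p of 0.460 and 0.376.

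The only genes of the 47 in which all 3 knockout mice lay above both control mice belong to the mitochondrial folate pathway downstream of Shmt2. Mthfd2, the mitochondrial methylenetetrahydrofolate dehydrogenase, had 8.90 and 8.97 CPM in the control mice and 12.4, 11.2 and 9.33 CPM in the knockout mice, a log2 fold change of 0.30 (SE 0.20, adjusted p = 0.463). Mthfd1l, the mitochondrial formyltetrahydrofolate synthetase that releases formate, had 8.43 and 9.69 CPM against 10.6, 10.7 and 30.1 CPM, a log2 fold change of 0.92 (SE 0.51, adjusted p = 0.391). Neither passed the test, and without mouse 3 the fold change of Mthfd1l was 0.24. With the trend over gene length and GC content removed, 1 rather than 2 of the 47 genes had all knockout mice above both control mice. Mtr, the methionine synthase that joins folate to methionine, had 18.9 and 12.5 CPM against 13.5, 18.4 and 14.9 CPM, so the groups overlapped, and its log2 fold change of -0.012 turned positive under other scalings. Of the exon bases of Mtr, 38.6% are shared with Gm10336 on the same strand, so its count is uncertain.

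Of the 4 genes of the methionine, betaine and transsulfuration group, in which Mtr was not counted, Bhmt2 and Cbs fell, and the median log2 fold change was -1.21. Bhmt2 (chromosome 13, 93792605 to 93810810, minus strand), which methylates homocysteine with S-methylmethionine, measured 83.9 and 124 CPM in the control mice and 27.2, 36.7 and 33.4 CPM in the knockout mice. The means were 104 ± 28.0 CPM (SD, n = 2) and 32.4 ± 4.84 CPM (SD, n = 3), a log2 fold change of -1.68 (SE 0.21, adjusted p = 0.0412). Its fold was close to that of Dmgdh, whose start lies 134 bases away, and for both genes mouse 3 lay between mice 1 and 2.

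Cbs (chromosome 17, 31831597 to 31856207, minus strand), which condenses homocysteine with serine and opens transsulfuration, measured 67.1 and 75.8 CPM against 22.7, 31.9 and 32.7 CPM. Group means came to 71.5 ± 6.10 CPM (SD, n = 2) and 29.1 ± 5.56 CPM (SD, n = 3), with a log2 fold change of -1.30 (SE 0.18, adjusted p = 0.0447). Cth, which completes the route to cysteine, had 150 and 206 CPM against 85.9, 98.5 and 60.8 CPM, without overlap, and did not pass the test (log2 fold change -1.12, adjusted p = 0.0811). Bhmt, the betaine-dependent enzyme of the same cluster as Bhmt2, was a low transcript, with 1.08 and 1.36 CPM against 0.341, 0.532 and 1.40 CPM. Mouse 3 had the highest Bhmt value of all 5 libraries, and the log2 fold change of -0.71 (adjusted p = 0.578) became -1.47 (adjusted p = 0.0449) without it.

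**Figure D3:**
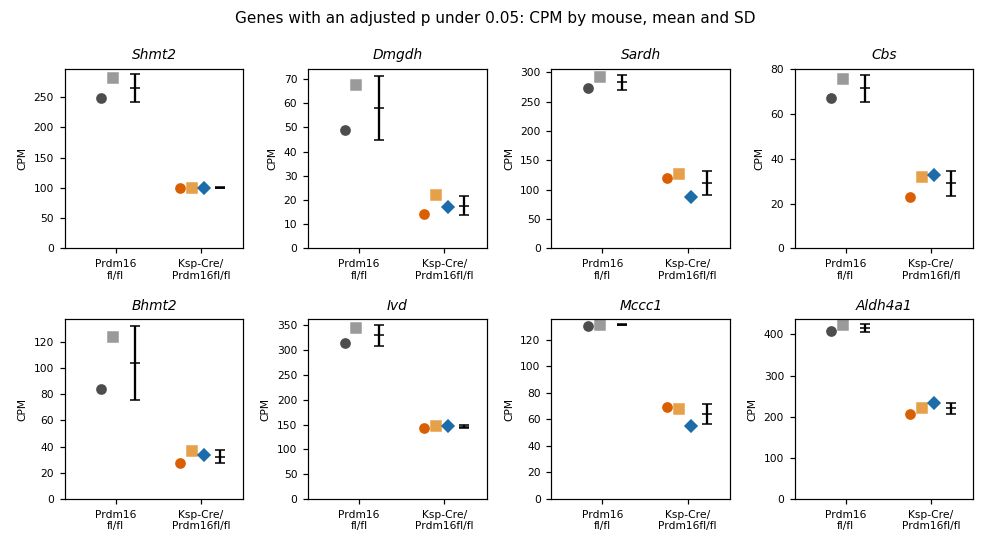
CPM in each mouse (points), with the group mean and SD (bars), for the 8 genes with an adjusted p under 0.05, on y axes that start at 0. For each of them, the 2 control mice (grey) lie above all 3 knockout mice (orange and blue), from Shmt2 at 249 and 281 against 98.9 to 100 CPM to Aldh4a1 at 409 and 422 against 207 to 233 CPM.

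Of the 15 branched-chain amino acid and propionate genes, 2 fell, and all 15 had a negative log2 fold change, with a median of -0.73. All 3 knockout mice lay below both control mice for 14 of 15, the exception being Bcat1. The adjusted threshold was passed by Ivd and Mccc1, which act in the breakdown of leucine, while 14 genes had an unadjusted p under 0.05. Ivd (chromosome 2, 118692440 to 118713390, plus strand), the isovaleryl-CoA dehydrogenase, measured 315 and 345 CPM in the control mice and 144, 148 and 148 CPM in the knockout mice. It averaged 330 ± 21.4 CPM (SD, n = 2) against 146 ± 2.2 CPM (SD, n = 3), a log2 fold change of -1.17 (SE 0.11, adjusted p = 0.0337). The spread within each group was small beside the gap between them.

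Mccc1 (chromosome 3, 36009584 to 36054843, minus strand) encodes the biotin-bearing subunit of methylcrotonyl-CoA carboxylase, the enzyme after Ivd. It measured 130 and 131 CPM against 69.5, 67.6 and 55.2 CPM. Control mice averaged 131 ± 0.354 CPM (SD, n = 2) and knockout mice 64.1 ± 7.77 CPM (SD, n = 3), a log2 fold change of -1.03 (SE 0.13, adjusted p = 0.0412). Mccc2, the other subunit, had 60.7 and 64.8 CPM against 35.7, 38.2 and 30.1 CPM, without overlap, and stood just outside the threshold (log2 fold change -0.86, adjusted p = 0.0532). Auh, which acts next in leucine breakdown, had the smallest fold change of the group, with 70.7 and 77.0 CPM against 48.8, 49.6 and 60.8 CPM (log2 fold change -0.48, adjusted p = 0.150).

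The later enzymes of the valine branch stood just outside the threshold. Hibch and Hibadh, which act in succession on hydroxyisobutyrate, and Aldh6a1, the methylmalonate semialdehyde dehydrogenase after them, each had an adjusted p of 0.0505. Their log2 fold changes were -0.72, -1.07 and -1.10. Acad8 and Echs1, which act earlier in this branch and were listed with the other pathway genes, were further from the threshold. Acad8 had a log2 fold change of -0.35 (adjusted p = 0.176) and Echs1 of -0.43 (adjusted p = 0.131). Hibadh had 372 and 492 CPM against 186, 219 and 210 CPM, and Aldh6a1 had 544 and 625 CPM against 227, 283 and 306 CPM, so the groups were separate. Of the exon bases of Aldh6a1, 20.6% overlap Bbof1 on the opposite strand, and strand use in counting is not stated in the sources used here.

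Before the branches divide, Bcat2, the mitochondrial transaminase, had a log2 fold change of -0.73 (adjusted p = 0.0765). The subunits of the branched-chain keto acid dehydrogenase that follows, Bckdha, Bckdhb and Dbt, had log2 fold changes of -0.73, -0.87 and -0.68 with adjusted p from 0.0772 to 0.133. Acadsb, the acyl-CoA dehydrogenase of the isoleucine branch, had -0.58 (adjusted p = 0.0736). Pcca and Pccb, the subunits of propionyl-CoA carboxylase, had -0.70 and -0.49 (adjusted p = 0.153 and 0.0981). The groups were separate for each of these 7 genes, and without mouse 3 all 7 passed, with adjusted p of 0.00132 to 0.0113. Bcat1, the cytosolic transaminase, varied within both groups, with 20.8 and 94.8 CPM in the control mice and 18.4, 47.6 and 14.1 CPM in the knockout mice, and its log2 fold change of -1.11 (adjusted p = 0.462) became 0.36 without control mouse 3.

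In proline and tyrosine breakdown, 1 of 5 genes fell and the median log2 fold change was -0.92. Aldh4a1 (chromosome 4, 139348404 to 139377002, plus strand), which turns the product of proline dehydrogenase into glutamate, measured 409 and 422 CPM in the control mice and 207, 220 and 233 CPM in the knockout mice. The means were 416 ± 9.52 CPM (SD, n = 2) and 220 ± 13.0 CPM (SD, n = 3), a log2 fold change of -0.92 (SE 0.12, adjusted p = 0.0412). It was the only 1 of the 8 with a change under 1 on the log2 scale. Prodh, the proline dehydrogenase before it, had 123 and 115 CPM against 54.3, 61.1 and 148 CPM, low in mice 1 and 2 and highest of all in mouse 3 (log2 fold change -0.44, adjusted p = 0.622).

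The tyrosine enzymes act in series from Hpd, the hydroxyphenylpyruvate dioxygenase, through Hgd, the homogentisate dioxygenase, to Fah, the fumarylacetoacetase. Hpd had the most negative fold change of the 47 genes at low levels, with 5.46 and 9.76 CPM against 0.454, 0.473 and 2.93 CPM. The log2 fold change of -2.59 had a standard error of 0.80 and did not pass (adjusted p = 0.170), although the groups did not overlap. Without mouse 3 it was -4.01, with an adjusted p of 8.3e-04. Hgd had 255 and 306 CPM against 112, 146 and 154 CPM, also without overlap (log2 fold change -1.03, adjusted p = 0.0564). Fah had 258 and 329 CPM against 129, 143 and 286 CPM, so mouse 3 lay between the control mice while mice 1 and 2 were well below them (adjusted p = 0.380).

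The genes of arginine, ornithine and creatine metabolism had a median log2 fold change of -1.17, but 0 of 6 passed the adjusted threshold with edgeR, while 3 had an unadjusted p under 0.05 and 3 passed with DESeq2. Groups did not overlap for 5 of them. Gatm, which makes guanidinoacetate in the proximal tubule as the opening step of creatine synthesis, had 521 and 422 CPM in the control mice and 192, 142 and 50 CPM in the knockout mice. Averages were 471 ± 70.0 CPM (SD, n = 2) against 128 ± 71.9 CPM (SD, n = 3), a log2 fold change of -1.88 (SE 0.50, adjusted p = 0.130). All 3 values were far below the controls, and they ranged from 50 CPM in mouse 3 to 192 CPM in mouse 1. Gamt, which methylates guanidinoacetate to creatine, was also lowest in mouse 3, with 15.5 and 25.2 CPM against 10.4, 13.0 and 2.40 CPM (log2 fold change -1.24, adjusted p = 0.344).

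Ass1, which with Asl makes arginine from citrulline in the kidney, had the highest level per length of the 47 genes, at 465 ± 58.2 FPKM (SD, n = 2) in control mice against 192 ± 55.7 FPKM (SD, n = 3). Its CPM was 847 and 741 against 244, 248 and 431 (log2 fold change -1.37, adjusted p = 0.0771). Asl had 146 and 148 CPM against 79.9, 82.0 and 158 CPM, with mouse 3 above both controls (adjusted p = 0.476). Agxt2, a mitochondrial aminotransferase that acts on glyoxylate and dimethylarginines, had 105 and 123 CPM against 54.7, 64.6 and 39.6 CPM (log2 fold change -1.10, adjusted p = 0.0698). Oat, the ornithine aminotransferase, had the smallest difference of the group, with 262 and 286 CPM against 260, 222 and 207 CPM (log2 fold change -0.25, adjusted p = 0.404).

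The lysine, kynurenine and dopamine enzymes did not share a direction, and 0 of 3 passed with edgeR, with 1 at an unadjusted p under 0.05 and the same number with DESeq2. Aadat, which transaminates kynurenine and aminoadipate, had 64.0 and 108 CPM against 30.4, 35.6 and 27.0 CPM (log2 fold change -1.47, SE 0.24, adjusted p = 0.0541). Its groups did not overlap. Aass, which opens lysine breakdown, had 331 and 382 CPM against 151, 202 and 470 CPM (log2 fold change -0.38, adjusted p = 0.704). Ddc, which makes dopamine from DOPA in the proximal tubule, had 33.7 and 34.2 CPM against 22.6, 31.1 and 86.7 CPM, a log2 fold change of 0.46 (adjusted p = 0.699) that became -0.34 without mouse 3.

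By compartment, 6 of the 30 mitochondrial enzymes and 2 of the 17 cytosolic ones, Cbs and Bhmt2, fell. Mitochondrial enzymes had a median log2 fold change of -0.73 and cytosolic ones -1.03, and this difference was not tested. Without mouse 3 the medians were -0.92 and -0.94.

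Knockout mouse 3 often lay away from mice 1 and 2. Mice 1 and 2 lay below both control mice for 43 of the 47 genes (91.5%, against 30.7% of all genes tested). Mouse 3 did not lie below both in 7 of these 43, Gldc, Bhmt, Prodh, Fah, Asl, Aass and Ddc (16.3%, against 30.6% of all genes with mice 1 and 2 below). It was the highest of all 5 libraries for 7 genes, the same list with Mthfd1l in place of Fah (14.9%, against 32.0%), and the lowest for 20 (42.6%, against 32.0%), with Gatm and Gamt the furthest below. In this mouse Gldc was above both control mice and Amt, of the same complex, was the lowest of all 5 libraries. Without mouse 3, Gldc, Prodh, Fah, Asl and Aass passed the test with log2 fold changes of at most -0.86 and adjusted p from 8.1e-04 to 0.00321. So did Gatm (log2 fold change -1.49, adjusted p = 0.00127) and Gamt (log2 fold change -0.79, adjusted p = 0.0433). These genes were named for where mouse 3 lay, so their passing without it follows in part from that choice. In that fit 11.0% of all genes tested were lower at an adjusted p under 0.05 with edgeR. What set this library apart was not tested.

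**Figure D4:**
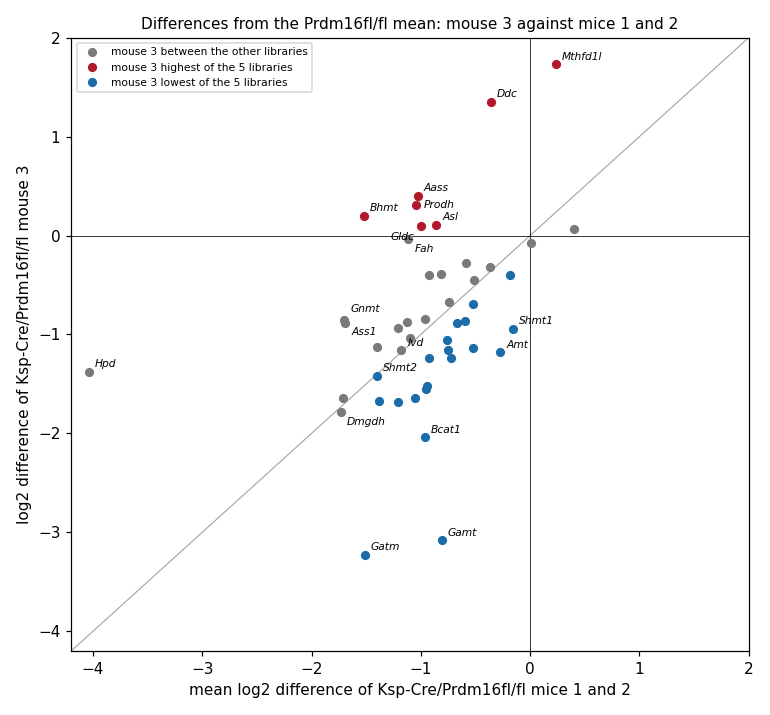
For each of the 47 genes, the log2 difference of knockout mouse 3 from the control mean (y axis) against the mean log2 difference of mice 1 and 2 (x axis), with the line of equal values. Red points are the 7 genes for which mouse 3 was the highest of the 5 libraries, and blue points the 20 for which it was the lowest.

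Of 70 other genes of the same pathways, 64 passed the filter, and their median log2 fold change was -0.48. At an adjusted p under 0.05, 8 were lower and 0 higher with edgeR, against 0.872% and 0.104% of all genes. There were 34 and 2 at an unadjusted p under 0.05 (against 11.2% and 7.64%), and 20 and 0 with DESeq2 (against 5.45% and 1.94%). Ahcy, which releases homocysteine from S-adenosylhomocysteine, had 198 and 247 CPM against 98.6, 98.1 and 96.3 CPM (log2 fold change -1.19, adjusted p = 0.0395). Ftcd, which moves a carbon from histidine to folate, had a log2 fold change of -1.52 (adjusted p = 0.0463). In the kynurenine pathway Haao, which oxidises 3-hydroxyanthranilate, and Afmid, which makes kynurenine, fell by 1.93 and 1.30 on the log2 scale (adjusted p = 0.0443 and 0.0327). The others were Acat1 of isoleucine and ketone metabolism (-1.10, adjusted p = 0.0463), Mcee of the propionate route (-0.94, adjusted p = 0.0447), Gcdh of lysine and tryptophan breakdown (-1.04, adjusted p = 0.0412) and Qdpr, which recycles tetrahydrobiopterin (-0.88, adjusted p = 0.0412). All 3 knockout mice were below both control mice for 42 of the 64, against 21.3% of all genes, and above both for 5, against 20.3%. The fold change was negative for 50 genes and positive for 14, with a range from -2.22 to 2.27. The highest were Arg1, a low transcript (2.27, adjusted p = 0.132), and Arg2 (1.63, adjusted p = 0.293), with 10.3 and 29.8 CPM against 32.9, 37.2 and 117 CPM.

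Genes of amino acid synthesis that cells induce under stress had a median on the other side of 0. This list of 11 shares Shmt2, Mthfd2, Mthfd1l, Aldh1l2 and Cth with the 47 genes and adds Phgdh, Psat1, Psph, Asns, Pycr1 and Aldh18a1. Its median log2 fold change was 0.30, with 1 gene lower (Shmt2) and 0 higher at an adjusted p under 0.05 with edgeR, and 2 lower and 1 higher at an unadjusted p under 0.05. The values ran from -1.41 for Shmt2 to 0.92 for Mthfd1l, and all 3 knockout mice lay above both control mice for 4 genes (against 20.3% of all genes) and below them for 4 (against 21.3%). Asns, the asparagine synthetase, had 10.9 and 11.7 CPM against 17.6, 14.4 and 16 CPM (log2 fold change 0.50, adjusted p = 0.189).

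Markers of the proximal tubule, where many of these enzymes are made, were lower in the same libraries. All 14 of 14 had all 3 knockout mice below both control mice (against 21.3% of all genes), with a median log2 fold change of -1.31 (-1.29 without mouse 3). The adjusted threshold was passed by 2 of them, the organic anion transporter gene Slc22a8 (log2 fold change -2.68, adjusted p = 0.0242) and Miox, the inositol oxygenase (log2 fold change -2.23, adjusted p = 0.0412). Their CPM summed to 23364 and 28657 in the control mice and to 6841, 8761 and 10886 in the knockout mice, and none of the 14 was at 0 in all libraries. The 8 tubular injury markers summed to 14964 and 15526 CPM against 32048, 32688 and 38170 CPM, with a median of 1.18, 0 genes past the adjusted threshold with edgeR, 7 higher at an unadjusted p under 0.05 and 6 higher with DESeq2. The part of either list in the difference of the enzyme genes was not tested. The proximal tubule median was more negative than that of the 47 genes, and this difference was not tested either.

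For markers of other kidney cells, median log2 fold changes were -0.66 for the thick ascending limb (5 genes), -1.0 for the distal convoluted tubule (4 genes), -0.73 for the collecting duct (7 genes), -0.64 for podocytes (5 genes) and -0.090 for endothelium (6 genes). They were 0.44 for fibroblasts and pericytes (7 genes), 0.26 for macrophages (7 genes), -0.35 for lymphocytes (5 of 6 tested) and 0.34 for proliferation (6 genes). Without mouse 3, the median was -0.35 for the thick ascending limb, -0.042 for lymphocytes, 0.42 for macrophages and 0.54 for proliferation. All 3 knockout mice lay below both control mice for 3 thick ascending limb, 3 distal convoluted tubule and 4 collecting duct genes. The same held for 3 podocyte genes and 1 endothelial gene (against 21.3% of all genes). They lay above both for 4 fibroblast and pericyte, 1 macrophage and 2 proliferation genes (against 20.3%). With edgeR, 1 gene of these lists, Nphs1 (nephrin) of podocytes, passed the adjusted threshold (log2 fold change -0.85, adjusted p = 0.0412). With DESeq2, 2 thick ascending limb, 2 collecting duct and 3 podocyte genes were lower, and 1 fibroblast and 1 macrophage gene higher. The 5 erythroid genes summed to 6.67 and 10.8 CPM in the control mice and to 151, 150 and 40.5 CPM in the knockout mice, with a median of 3.93 and 0 genes past the adjusted threshold, although all 5 passed with DESeq2. Their part in the values of the enzyme genes was not tested.

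**Figure D5:**
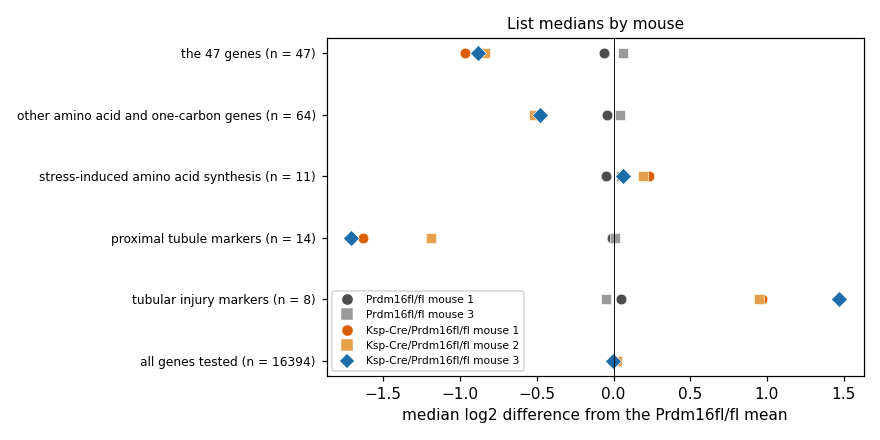
Median log2 difference from the control mean (x axis) in each of the 5 mice for the 47 genes, other genes of the same pathways, stress-induced amino acid synthesis genes, proximal tubule markers, tubular injury markers and all genes tested. The 47 genes lie at -0.97, -0.84 and -0.88 in the knockout mice, between the other pathway genes and the proximal tubule markers, while all genes tested lie near 0.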

How the data were processed

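RNA-seq of kidneys from 2 Prdm16fl/fl (control) and 3 Ksp-Cre/Prdm16fl/fl (knockout) mice with UIRI, 1 library per mouse, was grouped by the genotype in the labels. Before counting, the authors filtered out low-quality and adapter-containing reads, and they deposited a raw count per gene. The submitters' processing notes name featureCounts 2.0.1, CASAVA, DESeq2 1.16.1 and hg38, a human build. The aligner, strand use and annotation are not given in the sources used here, so counts of overlapping genes are uncertain. Of the 47 genes, 13 share exon bases with another gene, 2 of them over 10%. The authors also deposited TPM and FPKM, which scale the count by gene length and library total. Recomputing both from the counts gave the same values except for rounding. FPKM served for levels between genes and for an alternative.

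Broken lines of 5 genes, none of the 47, were rejoined. Of 35478 genes, filterByExpr of edgeR 4.0.16 kept 16394. Counts were scaled with TMM and tested with edgeR's quasi-likelihood test without covariates (R 4.3.3), with Benjamini-Hochberg adjustment over all genes tested. A gene rose or fell at an adjusted p under 0.05. CPM are per 1000000 TMM-scaled counts. Library totals for the control mice (1, 3) were 15215871 and 14939040 counts, and for the knockout mice (1 to 3) 16425161, 16111708 and 15470435 counts. Replicates differed by more than counting error (chi-square per degree of freedom of 9.89 for the closest pair), so none was the same library read again. This check cannot exclude separate libraries from the same mouse. The lowest count of any of the 47 genes in a library was 6.

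Alternatives were DESeq2 1.42.0, other scalings and filters, limma 3.58.1 on log2(FPKM + 1) and log2(FPKM + 0.1) where FPKM was 1 or more in 2 libraries, a loess correction for gene length and GC content (span 0.3, 15223 genes, GC from GENCODE M21), leaving out each mouse, and the mouse number as a block. Values in each mouse were given for all genes past the threshold and for the largest and smallest fold change in each pathway group. Values of other genes among the 47 were chosen after they were seen, as was Asns. The 47 genes and all lists were chosen with earlier results of these data known. The tests were checked on simulated counts. Tables and figures were made with Python 3.11.15, pandas 2.3.3 and matplotlib 3.10.9. Promoter sequences are from RefSeq (GRCm38.p6).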

Additional observations from a re-analysis of the deposited data

How the results depend on the processing

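Leaving out knockout mouse 1 or 2 gave 0 lower genes among the 47 and among the other pathway genes. In these fits 0 of all genes tested passed. Leaving out knockout mouse 3 gave 38 and 37 lower genes, and 2 higher other pathway genes, against 11.0% lower and 7.82% higher of all genes. Without a control mouse, the lone sample left is assumed to vary like the other group. The median log2 fold change of the 47 genes ranged from -0.93 to -0.76 across these fits. The count of genes with all knockout mice lower ranged from 36 to 43, and the count with all higher from 2 to 3. Both were taken on the same CPM, where leaving out a mouse can only keep or raise such a count.

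With all libraries, the counts of lower genes (the 47, then the other pathway genes) were 29 and 20 with DESeq2, 19 and 17 with no filter, 3 and 3 with library size scaling, 3 and 3 with limma on log2(FPKM + 1), 2 and 2 with log2(FPKM + 0.1), and 3 and 2 with the length and GC trend removed. Upper quartile scaling gave 6 and 4, and at least 10 counts in every library gave 11 among the 47. The total over all genes, lower and higher together, also moved. It was 160 of 16394 with TMM and filterByExpr, and 1175 of the 15895 genes with an adjusted p from DESeq2. No filter gave 471 of 25633, and library size scaling 51 of 16394. The FPKM scales gave 69 and 49 of 13345, and the length and GC correction 42 of 15223. Upper quartile scaling gave 117 of 16394, and at least 10 counts 213 of 14796. The median of the 47 genes was -0.74 with library size scaling, which moved the median of all genes from 0.038 to 0.15. For the 47 it was -0.69, -0.76 and -0.75 with the FPKM scales and the length and GC correction. That correction left 1 gene with all knockout mice higher. The causes were not tested.

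With the mouse number as a replicate block, 0 genes passed in either list, and 0 of all 16394 genes tested. At an unadjusted p under 0.05 with edgeR, 32 of the 47 were lower and 1 higher. Over all genes tested, 2061 had such a p, lower and higher together. Same-numbered mice did not deviate together across genes (r of deviations from -0.04 to 0.04 over all pairs), so no sign of pairing by number was seen. The deviations of the control mice mirror each other, so this check cannot exclude pairing, for instance by litter or in a part of the genes.

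Of the 47 genes, 44 kept their direction in each of the 15 fits that tested them, and the 8 that fell were among them. Shmt2 and Ivd passed in 9 of 14 alternatives, Bhmt2 and Aldh4a1 in 6, Dmgdh, Cbs and Mccc1 in 5 and Sardh in 4. Mtr turned positive with library size scaling (0.095), upper quartile scaling (0.00068), log2(FPKM + 1) (0.066), log2(FPKM + 0.1) (0.11), and ranged from -0.28 to 0.31 with a mouse left out, positive without control mouse 1 or knockout mouse 1 (0.085) or 3 (0.019). Over the same fits Bcat1 ranged from -1.83 to 0.36, positive without control mouse 3, and Ddc from -0.34, without knockout mouse 3, to 0.79. Depth limited Bhmt most, with 6 counts in its lowest library.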
